A study of Mus musculus with 8 samples.

Results

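The nuclear genes of oxidative phosphorylation were followed in resting B cells and T cells of the mouse spleen, in mRNA and in ribosome footprints. Members were taken by symbol and comprised the protein-coding genes named Nduf, Sdha to Sdhd, Uqcr, Cox4 to Cox8 and Atp5, with Cyc1 and Cycs. The rule found 97 of the 53801 Ensembl gene IDs in the count files, after 11 IDs that are pseudogenes or have no protein-coding class in RefSeq were left out. They held 38 subunits of complex I, 8 assembly factors of complex I, 4 genes of complex II, 9 of complex III, 20 of complex IV, 17 of complex V and the cytochrome c gene Cycs. Ndufa4 and Ndufa4l2 were counted with complex IV, to which their proteins belong, and Ndufb1-ps, which RefSeq lists as the protein-coding gene Ndufb1, was kept.

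Both cell types came from spleens of strain B6 and were sorted magnetically, then kept for 2 hours in medium, per the labels. No agent other than cycloheximide is named, and the sources used here do not give the genotype, age or sex of the animals. Cells for ribosome profiling received 100 µg/ml cycloheximide for 15 minutes, a translation inhibitor that holds ribosomes on the mRNA, and footprints are the mRNA fragments that ribosomes shield from nuclease. Each of the 4 groups had 2 libraries: B cell footprints (numbers 1 and 3), T cell footprints (1 and 2), B cell mRNA (1 and 3) and T cell mRNA (1 and 4). Whether the pair of libraries in each group stands for separate mice is not stated, so a p-value here reflects only the variation between the libraries at hand. In mRNA the pairs differed in transcripts that mark sex. Xist, which is made in female cells, had 2362 counts in B cell library 1 and 1437 in T cell library 1, with 8 and 6 counts of Y-linked genes. B cell library 3 and T cell library 4 had 2 and 3 counts of Xist and 1616 and 1575 of Y-linked genes, so the mRNA libraries of each cell type did not come from the same animals. In footprints, Y-linked genes had 72 and 53 counts in B cells against 3 and 35 in T cells. Xist had 0 and 2 footprint counts in B cells against 3 and 0 in T cells, too few to mark sex. No model with footprints had a term for these counts, and their part in the footprint results was not tested.

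Oxidative phosphorylation takes place in the inner mitochondrial membrane. Complexes I and II pass electrons from NADH and succinate to ubiquinone, complex III passes them on to cytochrome c and complex IV to oxygen, and the proton gradient built by complexes I, III and IV drives ATP synthesis by complex V. Most subunits are made in the cytosol from nuclear mRNAs and must be matched with the few subunits that the mitochondrial genome encodes. Resting lymphocytes are known to live largely on oxidative phosphorylation.

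In footprints, the totals were 236810 and 232568 for the B cell libraries and 627833 and 136433 for the T cell libraries, against 8945905 to 10050986 in the 4 mRNA libraries. The 11 B cell markers summed to 18230 and 10350 CPM (counts per library, brought to a shared total) in B cell footprints against 255 and 733 in T cell footprints, and to 11206 and 12388 in B cell mRNA against 87.6 and 213 in T cell mRNA. The 12 T cell markers summed to 97.1 and 301 in B cell footprints against 7929 and 4720 in T cell footprints, and to 78.5 and 695 in B cell mRNA against 5809 and 6926 in T cell mRNA. Of the 12, 2 and 1 had no count in B cell footprint libraries 1 and 3. Markers of T cells were thus higher in B cell libraries 3 than in B cell libraries 1 in both assays, and their part in the results below was not tested. Myeloid and granulocyte markers ran from 124 to 714, natural killer markers from 18.9 to 924 and plasma cell markers from 131 to 3023 CPM over the 8 libraries. Erythroid and platelet markers stayed at or below 17.2. In such bulk samples, fewer cells of a type and less RNA per cell cannot be told apart. All 13 protein genes of the mitochondrial genome were listed at 0 in every library, as were all 37 of its genes in the files, so the mitochondrially encoded subunits of complexes I, III, IV and V were not analysed here.

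Member levels are given as CPM whose total is that of the genes tested in both assays, scaled by the TMM method over the 8 libraries. A single count was worth 1.64 to 8.34 CPM in footprint libraries and 0.136 to 0.148 CPM in mRNA libraries. No gene lengths were used, so a CPM value is compared between libraries for the same gene and not between genes. Of the 97 members, 88 had a footprint count in B cells and 88 in T cells, and 94 had an mRNA count in B cells and 95 in T cells. The members took 0.992% and 0.948% of all footprint counts in B cells against 1.30% and 1.06% in T cells, and 0.882% and 0.906% of all mRNA counts in B cells against 0.972% and 1.05% in T cells. The share was lower in both B cell libraries than in both T cell libraries in each assay, with no overlap.

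Tissue-restricted isoforms were at or near 0 in both cell types. Cox7b2 and Cox8c, known from testis, had no count in any library, and Cox8b, the heart and muscle form of subunit 8, had none in B cells, none in T cell footprints and 1 and 0 counts in T cell mRNA. The limit that a count of 0 allows, 3 counts over the 2 libraries of a group, was 6.39 CPM in B cell footprints and 3.93 CPM in T cell footprints, against 0.163 CPM in B cell mRNA and 0.158 CPM in T cell mRNA. Cox4i2, the isoform of subunit 4 known for its response to low oxygen, had 2 and 1 mRNA counts in B cells against 1 and 2 in T cells, with no footprint count. Its widely expressed counterpart Cox4i1 had 3050 and 2735 counts in B cells against 3363 and 3215 in T cells. Ndufa4l2, Cox6b2 and Cox7a1 likewise had no footprint count. Their mRNA had 1 and 0 counts in B cells against 1 and 0 in T cells for Ndufa4l2, 12 and 7 against 9 and 11 for Cox6b2 and 6 and 11 against 10 and 22 for Cox7a1. Cox6a2, the heart and muscle form of subunit 6a, had 1 and 3 footprint counts in B cells and 0 in both T cell libraries, with mRNA at 2.08 and 4.14 CPM in B cells and 3.94 and 2.08 CPM in T cells. That gene overlaps Itgad, so its few counts cannot be assigned with certainty. Ndufb4c and Atp5s had mRNA counts in every library, but no footprint count for Ndufb4c and 2 in all for Atp5s, both in T cell library 1.

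The summed levels of each complex, given without a test, lay close together in the 2 cell types. Complex I summed to 2997 and 3264 CPM in B cell footprints against 3567 and 3202 in T cell footprints, and to 3026 and 3021 CPM in B cell mRNA against 3103 and 3437 in T cell mRNA. Complex V summed to 4306 and 4397 CPM in B cell footprints against 4955 and 4202 in T cell footprints, and to 4400 and 4343 CPM in B cell mRNA against 4826 and 5071 in T cell mRNA. The B and T cell libraries overlapped for complex I and for complex V in footprints, and did not overlap in mRNA. Complex IV summed to 1813 and 2147 CPM in B cell footprints against 2499 and 2385 in T cell footprints, and to 2714 and 2426 CPM in B cell mRNA against 3016 and 2971 in T cell mRNA. Complex III summed to 1189 and 1345 CPM in B cell footprints against 1477 and 1651 in T cell footprints, and to 1405 and 1385 CPM in B cell mRNA against 1464 and 1505 in T cell mRNA. For complexes III and IV the B cell libraries lay below the T cell libraries in each assay. Complex II summed to 685 and 624 CPM in B cell footprints against 662 and 517 in T cell footprints, which overlapped, and to 608 and 625 CPM in B cell mRNA against 634 and 690 in T cell mRNA, which did not.

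**Figure D1:**
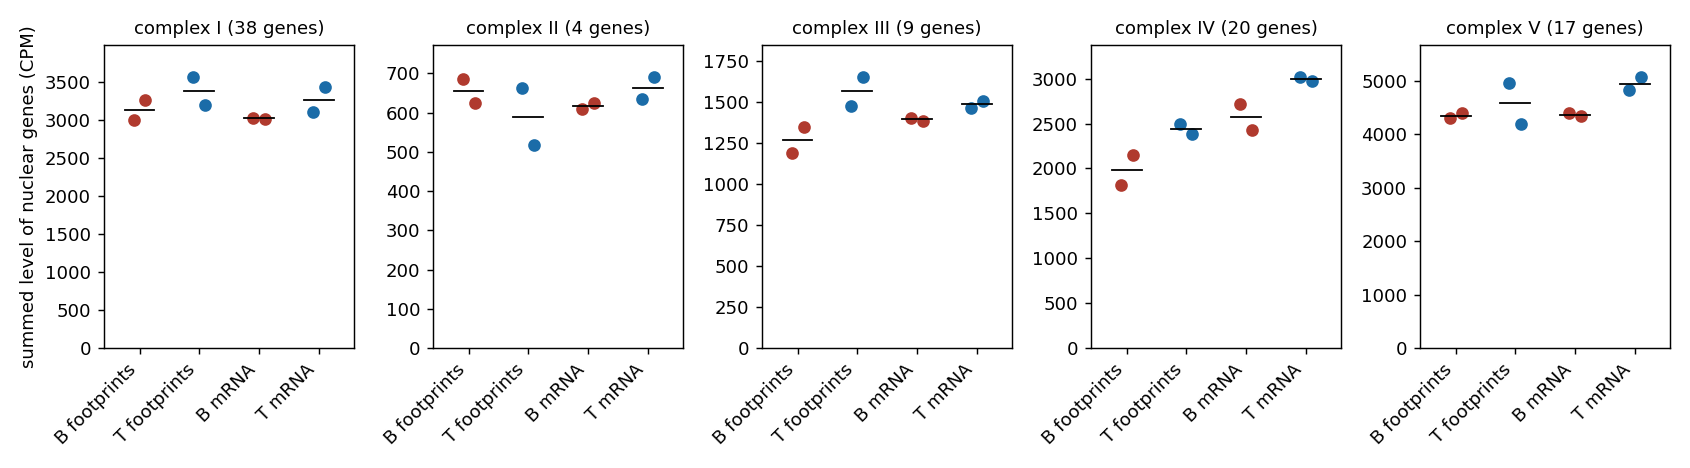
Summed level of the nuclear genes of each respiratory complex, in CPM scaled over the 8 libraries (vertical axes from 0, each panel with its own range). Points are single libraries, B cells in red and T cells in blue, and bars are means of 2. Complex IV footprints ran from 1813 to 2147 CPM in B cells, below the 2385 to 2499 CPM of T cells.

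In mRNA, no member passed the test of B against T cells, and 8 members passed once the split of the libraries by Xist was in the model. Of 92 members tested, 0 were called at an adjusted p under 0.05 (edgeR's quasi-likelihood test, Benjamini-Hochberg adjustment over all 13929 genes tested), while 18.5% of all genes tested were called, 9.4% higher and 9.06% lower in B cells. At an unadjusted p under 0.05, 13 members stood against 4522 of all genes, and DESeq2 called Ndufs8 higher and Ndufv3, Cox7a2l and Atp5h lower in B cells. The members' median log2 difference, B over T, was -0.10, with 63 negative and 29 positive values, beside a median of -0.01 over all genes. The quartiles of the members were -0.24 and 0.03, beside -0.42 and 0.38 for all genes tested. A p that misses the threshold does not show that levels were equal.

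The model with a term for the Xist split was added after the data were seen, and it left 1 residual degree of freedom. It called 1 member higher and 7 lower in B cells, beside 13.1% and 13.9% of all genes tested. The one higher was Ndufs8 (log2 0.53, adjusted p = 0.0209, edgeR). Those lower were Ndufv3 (adjusted p = 0.0360), Cox7a2l (0.0399), Cox7b (0.0357), Atp5j (0.0359), Atp5mpl (0.0367), Cycs (0.0430) and Ndufa10 (0.0465), with log2 differences from -0.50 to -0.36. The labels do not say that B and T cell libraries on the same side of the split share animals.

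The mRNA differences nearest to the threshold were those of complex I. Ndufv3, an accessory subunit of the arm that binds NADH, had 62.5 and 68.3 CPM in B cells against 95.6 and 92.8 CPM in T cells, with no overlap (log2 difference -0.49 ± 0.12, adjusted p = 0.0531). Ndufs8, a core subunit that carries iron-sulfur clusters, had 118 and 141 CPM in B cells against 85.3 and 98.4 CPM in T cells (log2 0.53 ± 0.13, adjusted p = 0.0596). The 2 genes of the same complex lay in opposite directions, and both were called with DESeq2 and when protein-coding genes alone were used (Ndufv3 adjusted p = 0.0425 and Ndufs8 adjusted p = 0.0423 in the protein-coding fit, edgeR). Among the assembly factors, which build complex I and are not part of it, values ran from -0.20 for Ndufaf4 to 0.40 for Ndufaf1, and none of 8 was called.

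In complex V, Atp5j, which encodes coupling factor 6 in the stalk of the enzyme, had 93.5 and 92.7 CPM in B cell mRNA against 122 and 131 CPM in T cell mRNA (log2 -0.41 ± 0.11, adjusted p = 0.0641). Atp5mpl, a small membrane subunit, had 95.1 and 92.8 CPM in B cells against 125 and 128 CPM in T cells (log2 -0.39 ± 0.11, adjusted p = 0.0726). Both pairs of B cell libraries lay below both T cell libraries. With upper-quartile scaling these 2 genes were called lower in B cells (edgeR, adjusted p = 0.0411 for Atp5j and 0.0439 for Atp5mpl). Atp5j overlaps Gabpa in the annotation, so that some counts cannot be assigned with certainty. Cycs, which encodes the electron carrier cytochrome c, had 70.05 and 60.6 CPM in B cells against 92.1 and 83.9 CPM in T cells (log2 -0.39 ± 0.15, adjusted p = 0.153). In complex IV, Cox7a2l had 546 and 490.2 CPM in B cells against 791 and 714 CPM in T cells (log2 -0.50 ± 0.17, adjusted p = 0.123), and Cox8a, the widely expressed form of subunit 8, 324 and 247 CPM against 262 and 276 CPM (log2 0.13 ± 0.19, adjusted p = 0.711).

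Counted by libraries that do not overlap, both B cell mRNA libraries lay below both T cell libraries for 36 of 92 members and above them for 7. Over all genes tested the shares were 31.2% lower and 30.0% higher, so the members' 39.1% lower stood somewhat above and their 7.61% higher below the shares of all genes. The count depends on the scaling, and became 44 lower and 4 higher when all 8 libraries were scaled together, beside 33.2% and 27.8% of all genes. Complex V had 11 of 17 genes lower, complex I 14 of 38, complex II 3 of 4, complex III 3 of 9 and complex IV 3 of 15.

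Footprints gave no called member either. Of 70 members that passed the filter on low counts, 0 were called between B and T cells (edgeR, adjusted over 4771 genes), 4 had an unadjusted p under 0.05 against 1132 of all genes, and DESeq2 also called 0. Of all genes tested 13.2% were called, 8.38% higher and 4.8% lower in B cells. The median log2 difference was -0.13, with 44 negative and 26 positive values, beside a median of 0.02 over all genes. Both B cell libraries lay below both T cell libraries for 23 members and above for 6, which is 32.9% and 8.57% beside 26.4% and 25.8% of all genes. The 27 members that did not pass had too few footprint counts, among them all 8 assembly factors and 10 complex I subunits.

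The footprint values farthest from 0 belonged to complexes III and V. Uqcrh, the hinge protein that helps cytochrome c dock on complex III, had 85.6 and 152 CPM in B cell footprints against 306 and 250.1 CPM in T cell footprints (log2 -1.24 ± 0.41, adjusted p = 0.0784). Uqcrb, a small subunit at the ubiquinone site, had 28.5 and 54.2 CPM in B cells against 107 and 100.0 CPM in T cells (log2 -1.33 ± 0.51, adjusted p = 0.125). In both genes the B cell libraries were below the T cell libraries, and library 1 was the lower of the B cell pair. Without B cell footprint library 3 both were called lower in B cells, at -1.71 (edgeR, adjusted p = 0.00836) for Uqcrh and -1.85 (adjusted p = 0.0403) for Uqcrb. Atp5mpl had 42.8 and 43.4 CPM in B cells against 93.7 and 133 CPM in T cells (log2 -1.31 ± 0.49, adjusted p = 0.117). Atp5g2 lay the other way, with 157 and 92.2 CPM in B cells against 70.7 and 58.4 CPM in T cells (log2 0.92 ± 0.47, adjusted p = 0.267). Ndufa2, an accessory subunit of complex I, had 80.9 and 108 CPM in B cells against 169 and 217 CPM in T cells (log2 -0.98 ± 0.42, adjusted p = 0.172). Uqcrh shares its annotated span with a pseudogene, and short footprints of such genes may be shared with copies elsewhere.

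In complex II, which links the tricarboxylic acid cycle to the respiratory chain, all 4 genes were tested. Sdha, the flavoprotein that oxidises succinate, had 428 and 309 CPM in B cell footprints against 288 and 208 CPM in T cell footprints (log2 0.56 ± 0.40, adjusted p = 0.478). Its mRNA stood at 271 and 272 CPM in B cells against 282 and 294 CPM in T cells (log2 -0.05 ± 0.13, adjusted p = 0.837). Both B cell footprint libraries were above both T cell libraries while the mRNA libraries of B cells were below, and neither passed the test. Sdhc, a membrane anchor, had 66.6 and 86.7 CPM in B cell footprints against 118 and 100.0 CPM in T cell footprints (log2 -0.53 ± 0.44, adjusted p = 0.559). The other anchor, Sdhd, and the iron-sulfur subunit Sdhb lay at 0.18 and -0.39 on the same scale.

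**Figure D2:**
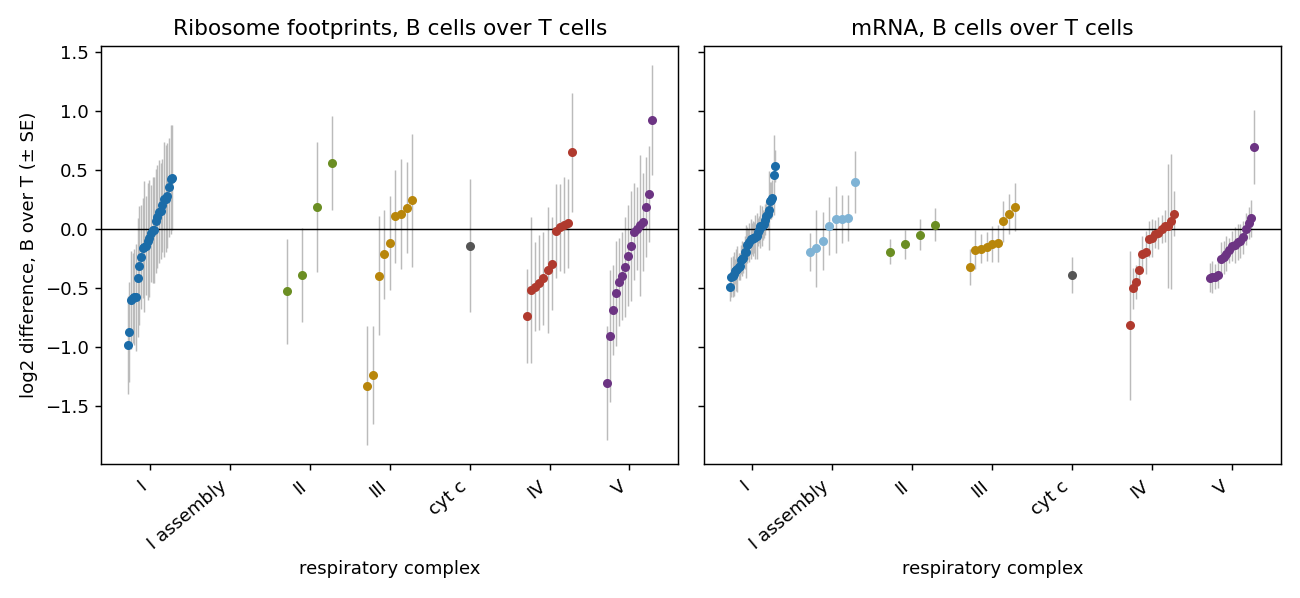
Log2 difference of B over T cells for each member tested, in footprints (left, 70 genes) and mRNA (right, 92 genes), by respiratory complex. Points are genes sorted within a complex, whiskers are standard errors, and the line marks 0. No member passed the test in either assay in these models without a term for the Xist split, and the footprint values have the wider errors.

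The footprints of a gene were then set against its mRNA within each cell type, a measure of translation relative to mRNA that compares the gene's share of footprints with its share of mRNA. The measure does not correct for the coding share of each mRNA, so a value of 0 is not a point of equal translation for all genes, and a difference between 2 genes can come from their lengths. Of 70 members tested, 10 were higher and 11 lower in footprints than in mRNA in B cells, and 10 higher and 10 lower in T cells (edgeR, adjusted over 4660 genes). Over all genes, 10.2% were called higher and 12.8% lower in B cells, beside 14.5% higher and 16.9% lower in T cells, or 23.0% and 31.4% in either direction. The members' shares, 14.3% higher and 15.7% lower in B cells and 14.3% each way in T cells, lay near these. The counts rest on few libraries: leaving out B cell mRNA library 3 left 1 higher and 3 lower in B cells, and leaving out T cell mRNA library 4 left 3 higher and 5 lower in T cells. In B cells the calls of Ndufa5, Ndufb11, Cox7a2l and Atp5l, and in T cells those of Ndufa5, Ndufa1, Cox7a2l, Cox7c and Atp5g2, were made under all 16 alternative settings and left-out libraries. Every other call was lost under at least 1 of the 16.

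The calls fell on both sides within each large complex. Complex I had 6 higher and 2 lower in B cells and 5 higher and 3 lower in T cells, of 28 tested. Complex III had 1 higher and 1 lower in B cells and 1 higher and 0 lower in T cells, of 9. Complex IV had 2 higher and 2 lower in each cell type, of 12. Complex V had 1 higher and 6 lower in B cells and 2 higher and 5 lower in T cells, of 16, with medians of -0.61 and -0.35. No gene of complex II was called in either cell type, and its medians were -0.23 in B cells and -0.10 in T cells. Cycs stood at -0.05 ± 0.42 in B cells and -0.27 ± 0.37 in T cells and was not called.

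In complex I, Ndufa5 stood highest above its mRNA in both cell types. This accessory subunit of the matrix arm (ENSMUSG00000023089, chromosome 6, 24518662 to 24527690 in GRCm38.p6) had 133 and 136 CPM in B cell footprints against 27.2 and 33.5 CPM in B cell mRNA, and 219 and 183 CPM in T cell footprints against 39.2 and 40.1 CPM in T cell mRNA. The log2 differences were 2.14 ± 0.22, adjusted p = 0.00132 in B cells and 2.37 ± 0.21, adjusted p = 0.000595 in T cells (edgeR). Ndufa1, a small subunit of the membrane arm encoded on the X chromosome, had 114 and 157 CPM in B cell footprints against 49.7 and 38.1 CPM in mRNA, and 237 and 158 CPM in T cell footprints against 57.0 and 57.4 CPM in mRNA. It was higher in footprints at 1.62 ± 0.29, adjusted p = 0.00781 in B cells and 1.85 ± 0.26, adjusted p = 0.00284 in T cells, and the B cell call was lost without B cell mRNA library 3 (adjusted p = 0.0566). Ndufa1 overlaps Rnf113a1. For neither gene did any footprint library reach down to the mRNA level.

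Ndufs4, a matrix arm subunit whose loss gives a known mitochondrial disease in mice, had 205 and 108 CPM in B cell footprints against 61.7 and 60.9 CPM in mRNA, and 169 and 192 CPM in T cell footprints against 75.5 and 81.8 CPM in mRNA. It was higher in footprints at 1.36 ± 0.28, adjusted p = 0.0138 in B cells and 1.18 ± 0.27, adjusted p = 0.016 in T cells. The B cell call was lost without B cell footprint library 1 (0.85, edgeR adjusted p = 0.0754), without B cell mRNA library 1 (adjusted p = 0.0780) and without B cell mRNA library 3 (adjusted p = 0.0819). The T cell call was lost without T cell footprint library 1 (adjusted p = 0.0772), mRNA library 1 (adjusted p = 0.0756) and mRNA library 4 (adjusted p = 0.0532). Ndufb1-ps, a membrane arm subunit, was higher in footprints at 1.06 ± 0.30, adjusted p = 0.0392 in B cells and 1.33 ± 0.29, adjusted p = 0.0127 in T cells. Without T cell footprint library 1 its T cell value was 0.75 (adjusted p = 0.178). Ndufc2 and Ndufa9 were called higher in B cells alone (0.95 and 0.79, beside 0.65 and 0.25 in T cells), and Ndufb8 in T cells alone (1.05, beside 0.38 in B cells), but the difference between the cell types did not pass the test for any of the 3.

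On the other side of complex I, Ndufb11, a membrane arm subunit encoded on the X chromosome, had 71.4 and 86.7 CPM in B cell footprints against 238 and 217 CPM in mRNA, and 100.2 and 150.1 CPM in T cell footprints against 217 and 210.0 CPM in mRNA. It was lower in footprints at -1.53 ± 0.27, adjusted p = 0.00755 in B cells and -0.86 ± 0.25, adjusted p = 0.0347 in T cells. The T cell value became -0.48 (edgeR, adjusted p = 0.298) without T cell footprint library 1, and the gene overlaps Rbm10. Ndufv1, the subunit that binds NADH and flavin, was lower at -0.86 ± 0.24, adjusted p = 0.0374 in B cells and -1.05 ± 0.23, adjusted p = 0.014 in T cells. The core subunits Ndufs1, Ndufs7, Ndufs8 and Ndufv2 were called in neither cell type.

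In complex IV, Cox7a2l had the lowest footprints over mRNA of the 70 members tested, in both cell types. It encodes a protein that joins complexes III and IV into supercomplexes, and C57BL/6 mice are known to carry a short allele of it (ENSMUSG00000024248, chromosome 17, 83501917 to 83514333). Its footprints stood at 33.3 and 54.2 CPM in B cells and 41.1 and 108 CPM in T cells, against mRNA at 546 and 490.2 CPM in B cells and 791 and 714 CPM in T cells. The log2 differences were -3.58 ± 0.46, adjusted p = 0.00267 in B cells and -3.58 ± 0.44, adjusted p = 0.00187 in T cells (edgeR). Behind these footprint values lay 7 and 10 counts in B cells against 25 and 13 in T cells, beside mRNA counts of 3679 and 3317 in B cells against 5817 and 4814 in T cells. Without T cell footprint library 1 the T cell value was -2.77 (adjusted p = 0.0153). Its paralog Cox7a2, the widely expressed form of subunit 7a, had 119 and 163 CPM in B cell footprints against 106 and 92.5 CPM in mRNA, and 168 and 233 CPM in T cell footprints against 124 and 111 CPM in mRNA. Cox7a2 lay on the other side of 0, at 0.50 ± 0.26, adjusted p = 0.199 in B cells and 0.71 ± 0.25, adjusted p = 0.0607 in T cells, and was not called.

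Cox7c, a small subunit of complex IV, had 71.4 and 65.1 CPM in B cell footprints against 162 and 132 CPM in mRNA, and 37.8 and 58.4 CPM in T cell footprints against 163 and 156 CPM in mRNA. It was lower in footprints at -1.10 ± 0.26, adjusted p = 0.0215 in B cells and -1.88 ± 0.27, adjusted p = 0.00289 in T cells. Its span holds a small nucleolar RNA gene, and its B cell call was lost when either B cell footprint library was left out (adjusted p = 0.0647 without library 1 and 0.0835 without library 3, edgeR) and when either B cell mRNA library was left out (adjusted p = 0.105 and 0.0601). Cox7b and Ndufa4 were higher in footprints in both cell types, Cox7b at 0.999 ± 0.26 in B cells and 0.95 ± 0.26 in T cells, and Ndufa4 at 0.77 ± 0.22 and 0.89 ± 0.21. These calls were among the weaker ones, since Cox7b was called in 10 of 16 alternatives in B cells and 9 in T cells. Cox4i1 had 224 and 342 CPM in B cell footprints against 453 and 404 CPM in mRNA, and 498 and 450.2 CPM in T cell footprints against 457 and 477 CPM in mRNA, and was not called (log2 -0.60 ± 0.26 and 0.03 ± 0.26). Cox6a1, Cox6b1 and Cox8a, the widely expressed forms of their subunits, were not called in either cell type.

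In complex III, Uqcrc2, a core subunit, was higher in footprints at 0.75 ± 0.21, adjusted p = 0.0374 in B cells and 0.77 ± 0.20, adjusted p = 0.0251 in T cells. Its footprints were at 295 and 255 CPM in B cells and 322 and 325 CPM in T cells, against mRNA at 165 and 163 CPM in B cells and 177 and 202 CPM in T cells. Uqcrh was lower in footprints in B cells, where footprints at 85.6 and 152 CPM stood against mRNA at 318 and 271 CPM (log2 -1.32 ± 0.30, adjusted p = 0.0193). In T cells its footprints at 306 and 250.1 CPM stood against mRNA at 352 and 331 CPM (log2 -0.28 ± 0.28, adjusted p = 0.483). The B cell call was lost without B cell footprint library 1 (-0.93, edgeR adjusted p = 0.0769), mRNA library 1 (adjusted p = 0.0780) or mRNA library 3 (adjusted p = 0.0589). Cyc1, the cytochrome c1 subunit, lay at -0.84 ± 0.30, adjusted p = 0.0774 in B cells and -0.88 ± 0.29, adjusted p = 0.0522 in T cells. Uqcrfs1, the Rieske iron-sulfur protein, lay near 0 at 0.05 ± 0.26 and 0.03 ± 0.26.

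Complex V held the most genes called lower in footprints than in mRNA, 6 of 16 in B cells and 5 of 16 in T cells. Over all genes tested, 12.8% were called lower in B cells and 16.9% in T cells. By sign alone, 9 of 16 in B cells and 11 of 16 in T cells lay below 0 in complex V. In complex I it was 14 and 12 of 28, beside 49.6% and 51.8% of all genes tested. The stalk subunit b gene Atp5f1 had 99.9 and 103 CPM in B cell footprints against 249 and 247 CPM in mRNA, and 107 and 142 CPM in T cell footprints against 273 and 291 CPM in mRNA. It was lower at -1.29 ± 0.23, adjusted p = 0.00823 in B cells and -1.24 ± 0.22, adjusted p = 0.00667 in T cells, calls lost without B cell mRNA library 3 (adjusted p = 0.0522) and without T cell footprint library 1 (adjusted p = 0.0752, edgeR). Atp5l, subunit g of the membrane part, had 23.8 and 70.5 CPM in B cell footprints against 194 and 168 CPM in mRNA, and 90.4 and 83.4 CPM in T cell footprints against 219 and 224 CPM in mRNA. It was lower at -1.97 ± 0.38, adjusted p = 0.0107 in B cells and -1.33 ± 0.33, adjusted p = 0.0204 in T cells. Its B cell footprint libraries differed, and the B cell value was -1.33 (adjusted p = 0.0280) without footprint library 1 and -2.89 (adjusted p = 0.00676) without library 3. Atp5h, subunit d of the stalk, was lower at -1.05 ± 0.30, adjusted p = 0.0413 in B cells and -0.92 ± 0.28, adjusted p = 0.0403 in T cells, but was called in only 4 and 3 of 16 alternatives. Atp5d, Atp5mpl and Atp5g1 were also called lower in B cells, and kept that call in 8, 9 and 6 of 16 alternatives.

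The catalytic genes of complex V were not among them. Atp5a1, the alpha subunit, had 1208 and 1084 CPM in B cell footprints against 799 and 800.4 CPM in mRNA, and 1124 and 909 CPM in T cell footprints against 889 and 917 CPM in mRNA (log2 0.52 ± 0.24, adjusted p = 0.148 in B cells and 0.18 ± 0.23, adjusted p = 0.609 in T cells). Atp5b, the beta subunit that carries the catalytic sites, lay at 0.09 ± 0.23 in B cells and -0.11 ± 0.23 in T cells. Atp5e, the epsilon subunit, lay at 0.76 ± 0.26 and 0.49 ± 0.26, and Atp5c1, the gamma subunit of the rotor, at -0.55 ± 0.29 and -0.65 ± 0.28. Atp5j was higher in footprints at 1.35 ± 0.25, adjusted p = 0.00935 in B cells and 0.93 ± 0.24, adjusted p = 0.025 in T cells, with footprints at 262 and 211 CPM in B cells and 281 and 183 CPM in T cells against mRNA at 93.5 and 92.7 CPM in B cells and 122 and 131 CPM in T cells. The B cell call of Atp5j was lost without either B cell mRNA library (adjusted p = 0.0607 and 0.0682), and without T cell footprint library 1 its T cell value was 0.56 (adjusted p = 0.230, edgeR).

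**Figure D3:**
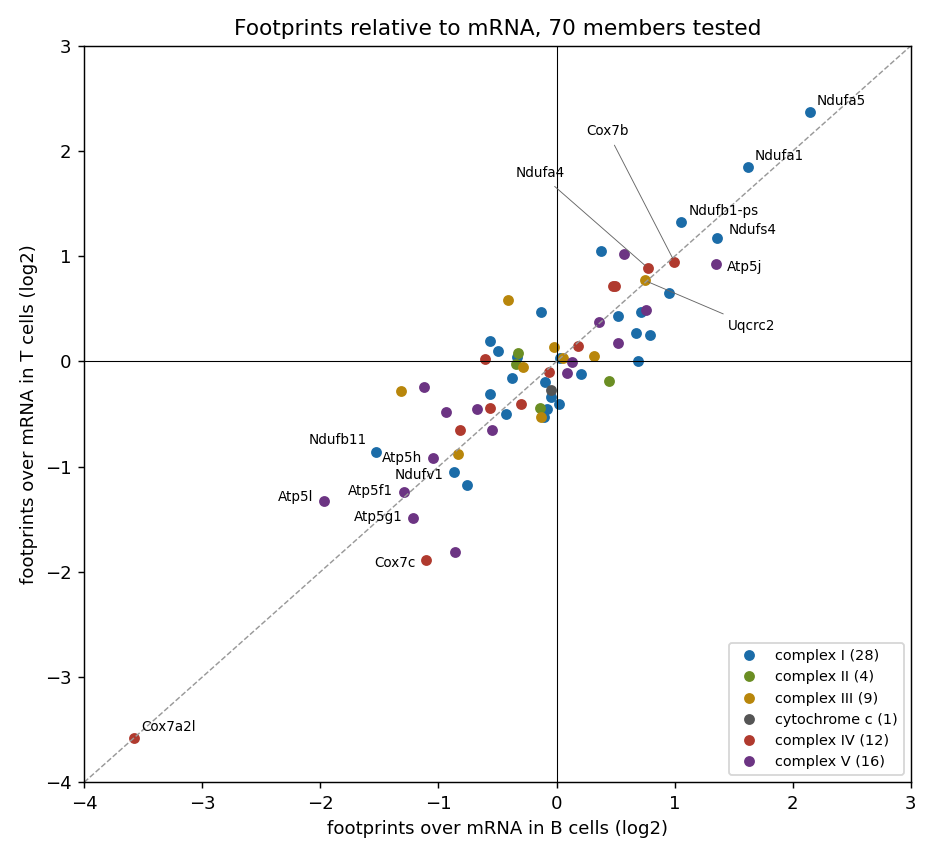
Log2 of footprints over mRNA in B cells (horizontal) and in T cells (vertical) for the 70 members tested, coloured by complex. Names mark the 16 genes called in the same direction in both cell types, and the dashed line marks equal values. Cox7a2l lies at -3.58 on both axes and Ndufa5 at 2.14 in B cells and 2.37 in T cells.

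Of the genes called higher in footprints, 8 were called in both cell types, which is 80.0% of those in B cells and 80.0% of those in T cells. Of those called lower, 8 were shared, 72.7% of those in B cells and 80.0% of those in T cells. Among all genes tested, 72.8% of the B cell calls and 51.2% of the T cell calls towards higher were shared, and 77.3% and 58.6% towards lower. No member was called in opposite directions, and 57 of 70 had the same sign in both, beside 3626 of 4660 genes. Across the 70 members the values correlated at r = 0.89, beside 0.72 across all genes. The points share gene length, sequence and counting between cell types, and genes are not independent replicates.

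The 3 genes of ATP synthase subunit c were present in different proportions in footprints and in mRNA. Atp5g1, Atp5g2 and Atp5g3 encode the same mature peptide of the rotor ring behind different leader peptides, so translation of all 3 feeds the same part of the enzyme. Atp5g3 took 62.9% and 71.0% of the footprint counts of the 3 genes in B cells against 84.4% and 82.1% in T cells. In mRNA it took 41.8% and 40.5% in B cells against 41.8% and 45.6% in T cells. Every footprint library thus held a larger share of Atp5g3 than any mRNA library, and in footprints the B cell shares lay below the T cell shares. The Wilson 95% intervals of the footprint shares, which cover counting error only, were 53.3% to 71.5% and 61.1% to 79.2% in B cells against 80.5% to 87.6% and 72.1% to 89.0% in T cells.

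Atp5g2 took the counterpart of this, at 31.4% and 18.3% of the footprint counts in B cells against 10.7% and 8.97% in T cells, and 41.9% and 41.2% of the mRNA counts in B cells against 39.9% and 36.7% in T cells. Atp5g2 had 157 and 92.2 CPM in B cell footprints against 236 and 219.6 CPM in mRNA (log2 -0.86 ± 0.27, adjusted p = 0.0547), and 70.7 and 58.4 CPM in T cell footprints against 233 and 236 CPM in mRNA (log2 -1.81 ± 0.28, adjusted p = 0.00398). Atp5g3 had 314 and 358 CPM in B cell footprints against 236 and 216 CPM in mRNA (log2 0.57 ± 0.22, adjusted p = 0.101), and 559 and 534 CPM in T cell footprints against 245 and 293 CPM in mRNA (log2 1.03 ± 0.22, adjusted p = 0.0117). Atp5g1 was lower in footprints at -1.21 ± 0.34, adjusted p = 0.0398 in B cells and -1.48 ± 0.32, adjusted p = 0.0127 in T cells, and without T cell footprint library 1 its T cell value was -0.89 (adjusted p = 0.209). Footprints in the shared coding part could be assigned to any of the 3 genes or left out, depending on how the authors' counting treated them, so their division is uncertain. The Atp5g3 call in T cells was lost without T cell footprint library 1 (adjusted p = 0.0525) or mRNA library 1 (adjusted p = 0.0969, edgeR).

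**Figure D4:**
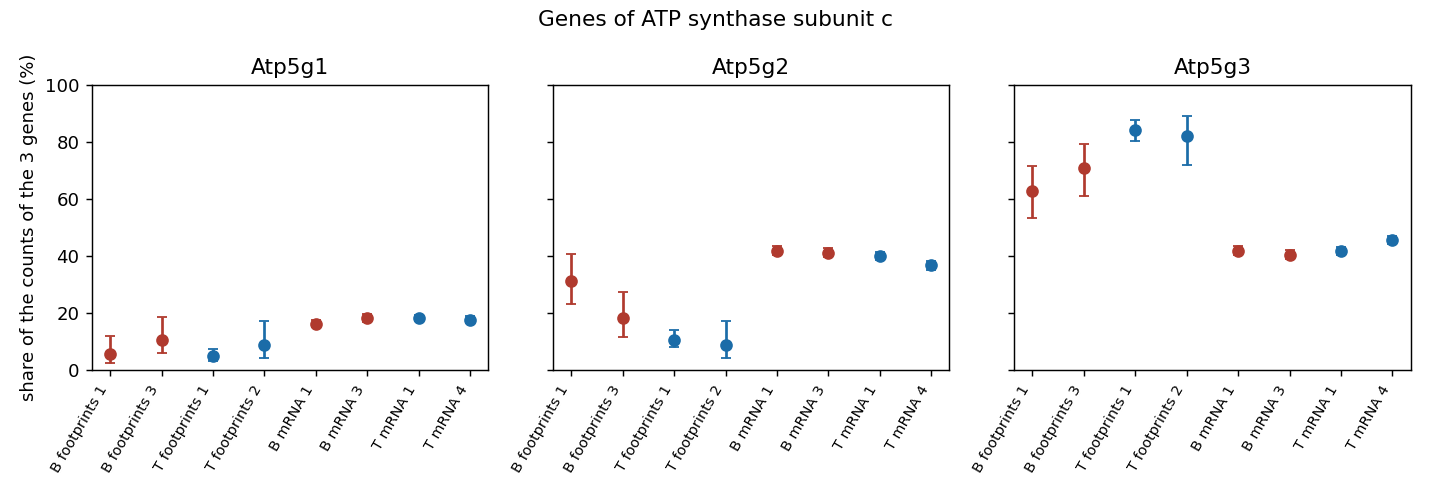
Share of Atp5g1, Atp5g2 and Atp5g3 in the summed counts of the 3 genes (percent, axis from 0 to 100), for each library, B cells in red and T cells in blue. Bars are Wilson 95% intervals of single libraries. Atp5g3 lies at 62.9% to 84.4% in footprints and at 40.5% to 45.6% in mRNA.

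No member passed the test of whether its footprints over mRNA differed between B and T cells. Of 70 members 0 were called, as were 0.0% of the 4660 genes tested (edgeR). At an unadjusted p under 0.05 there were 4 members and 355 genes, and DESeq2 called 15 genes, none of them a member. The members' values ran from -1.04 ± 0.41 for Uqcrh to 0.95 ± 0.39 for Atp5g2, with a median of 0.02 beside 0.04 over all genes. Uqcrb (-0.997 ± 0.41) and Atp5mpl (-0.88 ± 0.35) were the other two under an unadjusted 0.05, and all 4 had an adjusted p of 0.642. Cox7a2l (-0.00067 ± 0.46) and Ndufa5 (-0.23 ± 0.30) had values near 0 relative to their errors.

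Respiratory genes are known targets of NRF1, of ETS factors such as GABPA and of YY1, and the promoter windows of RefSeq (GRCm38.p6, 250 bases before to 50 after the annotated start) were searched for their motifs. Windows were found for 78 of the 97 members and for 27025 genes in all. The 27025 were not filtered by gene class or level, so shares of all genes are not a matched background for these protein-coding members. The NRF1 motif, a palindrome of 10 bases, was in 7 members (8.97%) beside 1.07% of all genes. The ETS motif ACTTCCGG, on either strand, was in 5 members (6.41%) beside 4.31%. The YY1 core AAGATGGC, on either strand, was in 11 members (14.1%) beside 3.19%. A match is a description of the letters and not a bound site. The NRF1 matches of a gene each from complexes III, IV and V are shown to let the shared core be seen in its surroundings, 5′ to 3′ on the gene strand with the motif in capitals.
Uqcrc1, chr9:108936669-108936696, plus strand: ctccgctctGCGCATGCGCagcgcggct
Cox6a1, chr5:115349102-115349129, minus strand: aggaacgggGCGCATGCGCgctctcgct
Atp5g2, chr15:102671071-102671098, minus strand: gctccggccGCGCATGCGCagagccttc

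On the gene strand and within the first 50 bases after the start, AAGATGGC was in 9 members (11.5%) beside 1.04% of all genes. Among genes tested in footprints over mRNA, 123 had these letters there and 3498 did not, beside 7 and 51 members. These letters are also the core of an element known as TISU, which holds the start codon ATG in mRNAs with a very short leader. Only the letters were searched, and neither the start codon nor the length of the leader was checked. Of the 9 members, 8 belong to complex I or its assembly, and they are shown in windows of 28 bases with AAGATGGC in capitals. All 9 are among the 11 members with the YY1 core, since the letters are the same.
Ndufa3, chr7:3617385-3617412, plus strand: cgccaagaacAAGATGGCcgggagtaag
Ndufa9, chr6:126849098-126849125, minus strand: attgtgggagAAGATGGCggccgccgtc
Ndufb8, chr19:44555393-44555420, minus strand: aaccgcggagaaggtgAAGATGGCtgcc
Ndufc1, chr3:51408916-51408943, minus strand: cctgcggaacAAGATGGCgccgtccgta
Ndufs4, chr13:114388045-114388072, minus strand: gtttgcctacaggAAGATGGCggcggtc
Ndufs6, chr13:73328433-73328460, minus strand: gggtcaccggcAAGATGGCggcggtgct
Ndufs7, chr10:80249463-80249490, plus strand: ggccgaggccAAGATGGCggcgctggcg
Ndufaf8, chr11:120098934-120098961, plus strand: ggcagggcccAAGATGGCggcgccctcg
Atp5j2, chr5:145191501-145191528, minus strand: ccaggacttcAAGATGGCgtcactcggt

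Of these 9, 7 passed the filter on low counts. Among them footprints over mRNA had a median log2 of 0.69 in B cells and 0.47 in T cells, beside -0.10 and -0.18 for the 51 other members with a window. In B cells 2 were called higher and 0 lower, namely Ndufs4 and Ndufa9, and in T cells 2 higher and 0 lower, namely Ndufs4 and Ndufb8. Of the 51 others, 7 were higher and 10 lower in B cells, and 7 higher and 9 lower in T cells. Of all 123 tested genes with these letters at that place, 11 were higher and 12 lower in B cells, and 18 higher and 13 lower in T cells. Over these 123 genes the medians were 0.06 in B cells and 0.02 in T cells, beside -0.04 and -0.08 for 3498 genes without the letters. The members' medians were thus not those of all genes with the letters. The windows were chosen with the values known, and no test was made.

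A run of pyrimidines beginning with C at the first base is the mark of the terminal oligopyrimidine mRNAs, best known from ribosomal proteins. Such a start, C and at least 4 more pyrimidines at the annotated first base, was found in 4 members (5.13%) beside 3.01% of all genes. Their first 20 bases are shown with the run in capitals.
Atp5d, chr10:80142315-80142334, plus strand: CCTTCggagaatcctgtgcg
Atp5g2, chr15:102671028-102671047, minus strand: CCCTCTCTgtcttctctgcc
Ndufb11, chrX:20617600-20617619, minus strand: CTCTTTagaagcttgctgtc
Uqcrfs1, chr13:30545297-30545316, minus strand: CTCTTCgggccgtcgttcga

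All 4 were tested. In B cells 0 were higher and 2 lower in footprints (Atp5d and Ndufb11), and in T cells 0 higher and 2 lower (Atp5g2 and Ndufb11), with medians of -0.90 and -0.67. Uqcrfs1 lay near 0 in both cell types. Over all 108 tested genes with such a start, 9 were higher and 31 lower in B cells, beside 14 higher and 39 lower in T cells, with medians of -0.43 in each. Among 3513 genes without it the medians were -0.03 in B cells and -0.06 in T cells. An annotated start is a single position per transcript and need not be the one used in these cells.

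Of the other genes of the pathway, 41 assembly factors outside the Nduf names were looked up and 40 were tested in mRNA, with 1 higher and 2 lower in B cells, or 3 of 40 beside 18.5% of all genes. Cmc1, a factor for complex IV, fell to 16.9 and 17.6 CPM in B cell mRNA, against 43.5 and 40.1 CPM in T cell mRNA (log2 -1.24 ± 0.17, adjusted p = 0.0149, edgeR). Uqcc3, a factor for complex III, was lower at -0.70 ± 0.14, adjusted p = 0.0354, and Sdhaf2, which helps flavin enter complex II, was higher at 0.62 ± 0.13, adjusted p = 0.0355. Of 7 tested in footprints over mRNA, 2 were higher and 0 lower in each cell type, beside 10.2% of all genes higher in B cells and 14.5% in T cells, namely Cox16 (3.04 ± 0.53 in B cells and 3.10 ± 0.49 in T cells) and Coa7 (1.70 ± 0.50 and 1.97 ± 0.50). Cox16 had 38.1 and 38.0 CPM in B cell footprints, where a count was worth 4.76 and 5.42 CPM, against 5.19 and 3.99 CPM in mRNA. In T cells its footprints had 64.1 and 58.4 CPM against 7.62 and 6.68 CPM in mRNA, so few counts lay behind these values.

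The tricarboxylic acid cycle and pyruvate dehydrogenase list had 18 genes, with 1 higher and 2 lower in B cell mRNA, or 3 of 18 beside 18.5% of all genes. Fh1, fumarase, had 133 and 141 CPM in B cells against 55.1 and 70.8 CPM in T cells (log2 1.16 ± 0.14, adjusted p = 0.0114). Idh2, the mitochondrial isocitrate dehydrogenase that uses NADP, had 39.6 and 37.1 CPM in B cells against 79.4 and 80.0 CPM in T cells (log2 -1.02 ± 0.14, adjusted p = 0.0137). Pdha1, the entry subunit of pyruvate dehydrogenase, was lower at -0.77 ± 0.12, adjusted p = 0.021 (edgeR). In footprints, 15 were tested between B and T cells and 0 called, beside 13.2% of all genes. Footprints over mRNA, tested for 15, were called for none in B cells, beside 23.0% of all genes. In T cells they were called for Dld (higher, 1.15 ± 0.21) and Cs, citrate synthase (lower, -0.73 ± 0.22), beside 14.5% of all genes higher and 16.9% lower.

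Of 17 carriers and ubiquinone synthesis genes tested in mRNA, 1 was higher and 0 lower in B cells, beside 9.4% and 9.06% of all genes. It was Coq8a, a kinase-like protein needed to make ubiquinone, at 120.2 and 121 CPM against 24.1 and 29.2 CPM in T cells (log2 2.22 ± 0.14, adjusted p = 0.00298, edgeR). For footprints over mRNA 8 were tested, with 0 higher and 1 lower in B cells and 0 higher and 2 lower in T cells. Over all genes 12.8% were lower in B cells and 16.9% in T cells. Slc25a3, which brings phosphate to complex V, was lower in footprints than in mRNA in both cell types (-1.55 ± 0.26 in B cells and -1.51 ± 0.25 in T cells), as was Vdac1 in T cells (-1.10 ± 0.33). Of 14 regulators, 13 were tested in mRNA and 0 called, beside 18.5% of all genes. In footprints 8 were tested, with 1 higher and 1 lower in B cells, beside 8.38% and 4.8% of all genes. Gabpb1, the partner of GABPA, fell to 33.3 and 54.2 CPM in B cell footprints, against 263 and 267 CPM in T cell footprints (log2 -2.58 ± 0.45, adjusted p = 0.0022). Its mRNA stood at 43.5 and 47.4 CPM in B cells against 44.9 and 53.0 CPM in T cells (log2 -0.07 ± 0.15, adjusted p = 0.812). Myc was higher in B cell footprints at 1399 and 922 CPM against 75.6 and 200.1 CPM in T cells (log2 3.22 ± 0.55, adjusted p = 0.00202). The difference of footprints over mRNA between B and T cells was -2.50 ± 0.35 for Gabpb1 and 2.05 ± 0.69 for Myc. Neither passed that test (edgeR, adjusted p = 0.547 for Gabpb1 and 0.642 for Myc). For footprints over mRNA, 8 regulators were tested, and 2 were higher and 0 lower in each cell type. Over all genes 10.2% were higher in B cells and 14.5% in T cells. Gabpa was higher in footprints than in mRNA in B cells (0.72 ± 0.21), Gabpb1 in T cells (2.43 ± 0.22) and Hif1a in both (1.59 ± 0.36 and 1.96 ± 0.33).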

How the data were processed

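RNA-seq and ribosome profiling libraries of resting B and T cells were used, 2 per group. The deposited values are raw counts per Ensembl gene by the authors, all whole, with unequal library totals. Tools in the submitters' processing notes are HTSeq, TopHat, Bowtie2 and FastQC, with build mm10. The sources used here do not give versions, the annotation release, the use of strand or the treatment of reads with several matches. Reads of overlapping genes (30 members overlap another RefSeq gene) and of near-identical copies may therefore be assigned wrongly. Of the count columns 0 were left unused, and the 2 libraries of each group differed beyond counting noise (chi-square per degree of freedom of 5.35 to 32.5).

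Members, gene lists and tests were chosen with earlier results of these data known. Symbols and gene classes came from the names table and RefSeq (GRCm38.p6). Counts were tested with edgeR 4.0.16 in R 4.3.3 (quasi-likelihood test, TMM scaling, filterByExpr at 10 counts and 15 in total, Benjamini-Hochberg adjustment over all genes tested, threshold 0.05). Each assay's 4 libraries gave the B over T test, with 2 residual degrees of freedom. Footprints were compared with mRNA, in each cell type and between them, in 1 joint model (8 libraries, 4 residual degrees of freedom), on genes that passed the filter in each assay. Log2 differences are given ± standard error, with n = 2 libraries per group throughout. The tests between cell types were also run on simulated counts with known changes. The share recovered is not given here, so that run does not show how large a difference the tests could miss.

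Named members were those called (the 4 with the largest difference each way where over 12 were), those with the largest and smallest difference in each complex and comparison at a mean of at least 10 CPM, the isoform sets and members without counts. A planned part of the rule, by level per length, could not be applied because no transcript lengths were at hand. Members named beyond the rule (such as Ndufv1, Cox7a2, Atp5a1 and genes of the other lists) were chosen after their values were seen. The result of 1 member that the rule names is not reported here. The alternatives were RLE and upper-quartile scaling, protein-coding genes without immunoglobulin and T cell receptor genes, DESeq2 1.42.0, other filters, leave-one-out fits and a replicate block. A block by Xist and Y-linked counts in mRNA was added after the data were seen.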

Additional observations from a re-analysis of the deposited data

How the results depend on the processing

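No called value of a named member changed sign. The members' median of footprints over mRNA took either sign, from -0.11 to 0.13 in B cells (-0.09 as reported), from -0.15 to 0.19 in T cells (-0.04) and from -0.10 to 0.07 between the cell types (0.02). In mRNA, B over T, members called higher and lower were 1 and 3 with DESeq2, 1 and 1 with protein-coding genes only, 0 and 3 with upper-quartile scaling, 1 and 7 with the block by Xist and Y-linked counts (3755 genes) and 0 and 1 with a mean CPM of at least 10. Leaving out a library gave 1455 to 1973 genes called, against 2572. In footprints, B over T, leaving out a library gave 415 to 898 genes against 629 and 0 to 2 members lower. For footprints over mRNA in B cells, against 1071 genes, 10 members higher and 11 lower, DESeq2 called 2972, 20 and 7. Genes called were 2633 without a filter beyond 1 count (7 members lower), 2437 at a mean CPM of at least 10 and 2484 with the filter over all 8 libraries. Leaving out a library gave 364 to 1191 genes, 1 to 13 members higher and 3 to 12 lower. In T cells, against 1463 genes, 10 higher and 10 lower, DESeq2 called 3936 genes and 22 members higher, with a median of 0.18 against -0.04. The filters gave 3753, 3077 and 3642 genes in the same order, and the mean CPM filter 17 members higher with a median of 0.19. Leaving out a library gave 696 to 2013 genes, 2 to 14 members higher and 5 to 10 lower. For footprints over mRNA, B over T, DESeq2 called 15 genes against 0. The cause of these shifts was not tested. Among the values of single members, 2522 stayed on their side of the threshold, 52 gained and 120 lost a call. The sign was compared only for values called in the reported fit or in the alternative.

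B and T cell libraries share only the number 1. No paired analysis by number was possible because that leaves a single pair between B and T cells within an assay. Split by Xist, the mRNA libraries form 2 pairs, and library differences in B cells correlated with those in T cells at 0.56 over 13929 genes and 0.28 over 92 members. Between assays, the labels do not say that equal numbers mark the same animals. Deviations of B cell libraries 1 and 3 from their means correlated at 0.05 between assays over 4660 genes and at -0.25 over 70 members. Y-linked counts were 72 and 53 in B cell footprints 1 and 3 against 8 and 1616 in mRNA. Xist had 0 to 3 counts in every footprint library, too few to mark sex, so it does not bear on this. B cell footprint library 1 held 72 Y-linked counts in a total of 236810, against 8 in 9466190 for B cell mRNA library 1. These 2 libraries thus did not come from the same animals. The replicate block joins libraries by number, these 2 among them. With the replicate block, which left 1 residual degree of freedom, 875 genes with 4 members higher and 5 lower were called in B cells, 569 genes with 3 and 4 in T cells, and 37 genes with no member between the cell types.

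Footprint depth limits the members, of which 27 of 97 were not tested, and a count was worth up to 8.34 CPM.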
